A study of Mus musculus with 11 samples.

Results

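The genes followed here belong to transforming growth factor beta (TGF-beta) signalling and to the myofibroblast, and were measured in whole mouse kidney by RNA sequencing. They were chosen by symbol, 10 of the 25677 genes listed in the counts: the ligands Tgfb1, Tgfb2 and Tgfb3, the receptors Pdgfra and Pdgfrb, the contractile genes Acta2 and Tagln, the matrix genes Fn1 and Postn, and the intermediate filament gene Vim. The kidneys came from 3 female C57BL/6J mice (Ctr, labelled C57B6), from 4 female MRL/lpr mice (Lpr) and from 4 female MRL/lpr mice that received DNase I by daily intraperitoneal injection from week 17 (DNase), all taken at 21 weeks of age with 1 library per kidney. MRL/lpr is an inbred strain with a mutation of Fas that develops a lupus-like nephritis, and both MRL/lpr groups carry it. DNase I is an enzyme that cuts DNA lying outside cells. The controls are of another strain, so disease and strain cannot be told apart in any comparison with Ctr, and the labels give no treatment for the mice that did not receive DNase I.

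TGF-beta is secreted in a latent form, is released in the matrix and acts through receptor kinases that phosphorylate SMAD proteins. In an injured kidney it is known for turning interstitial fibroblasts and pericytes, the cells that carry platelet-derived growth factor (PDGF) receptors, into myofibroblasts, which contract and lay down matrix. The same contractile genes are also made by the smooth muscle of vessels and of the renal pelvis, and vimentin also by leukocytes, endothelium and podocytes.

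Libraries held between 33469858 and 38460873 counts. Where 1 gene is compared between kidneys, values are in CPM, counts as a fixed multiple of their share of a library total scaled by TMM normalization. Where genes are compared with each other, they are in FPKM. It takes the share of the unscaled library total and divides by gene length in kilobases. The level of a gene relative to the other libraries changed with gene length. On the log2 scale and for each doubling the change was -0.393 in Lpr replicate 3 and -0.0432 to 0.0775 in the other kidneys. Most values of Lpr for single genes and gene lists are also given without Lpr replicate 3. Tagln and Vim are short in the deposited values (1586 and 1834 bases), and Pdgfra is long (9203 bases). Kidney markers were present in every library, with 4299 to 10613 CPM summed over 5 proximal tubule genes. Of the 12 lists of cell type markers, leukocytes and macrophages were the lists with members that passed between Lpr and Ctr with all kidneys. Without Lpr replicate 3, 2 of 5 podocyte markers, 1 of 5 endothelial, 1 of 5 proximal tubule and 1 of 4 distal tubule and collecting duct markers also passed there, as lower. All 8 leukocyte markers and all 6 macrophage markers passed as higher, both in Lpr and in DNase against Ctr, and Cd8a, a T cell coreceptor, was the marker with the smallest p (19.8-fold in Lpr and 18.6-fold in DNase). Between DNase and Ctr, 4 of 4 skeletal muscle markers, 1 of 5 podocyte markers (Wt1, at 0.626-fold, a call lost with all 3 groups in one fit, adjusted p = 0.0603) and 1 of 4 markers of the distal tubule and collecting duct passed as lower, and 1 podocyte marker passed as higher. With all kidneys no marker of the other 7 lists passed in any comparison, and between DNase and Lpr no marker of any list passed with or without Lpr replicate 3. In whole tissue, fewer cells of a type and less RNA per cell cannot be told apart.

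In Ctr kidneys Vim had the highest level per length, 43.2 ± 11.9 FPKM (SD, n = 3). It was followed by Tagln with 30.6 ± 13.6 FPKM and by Acta2 with 25.7 ± 13.3 FPKM, and the ranges of these neighbours overlapped. Tgfb1 (10.1 ± 1.62 FPKM) and Fn1 (9.41 ± 1.62 FPKM) lay below Acta2 without overlap and could not be ordered between themselves. Pdgfrb (6.95 ± 1.02 FPKM) was below both in every kidney. Pdgfra (4.63 ± 1.08 FPKM) and Postn (4.29 ± 1.88 FPKM) overlapped each other. Tgfb3 (0.871 ± 0.329 FPKM) and Tgfb2 (0.619 ± 0.117 FPKM) were the lowest and also overlapped. The lowest count of any of the 10 genes in any kidney was 55, for Tgfb2 in Lpr replicate 1, so all 10 passed the filter on low counts in each of the 3 comparisons.

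**Figure D1:**
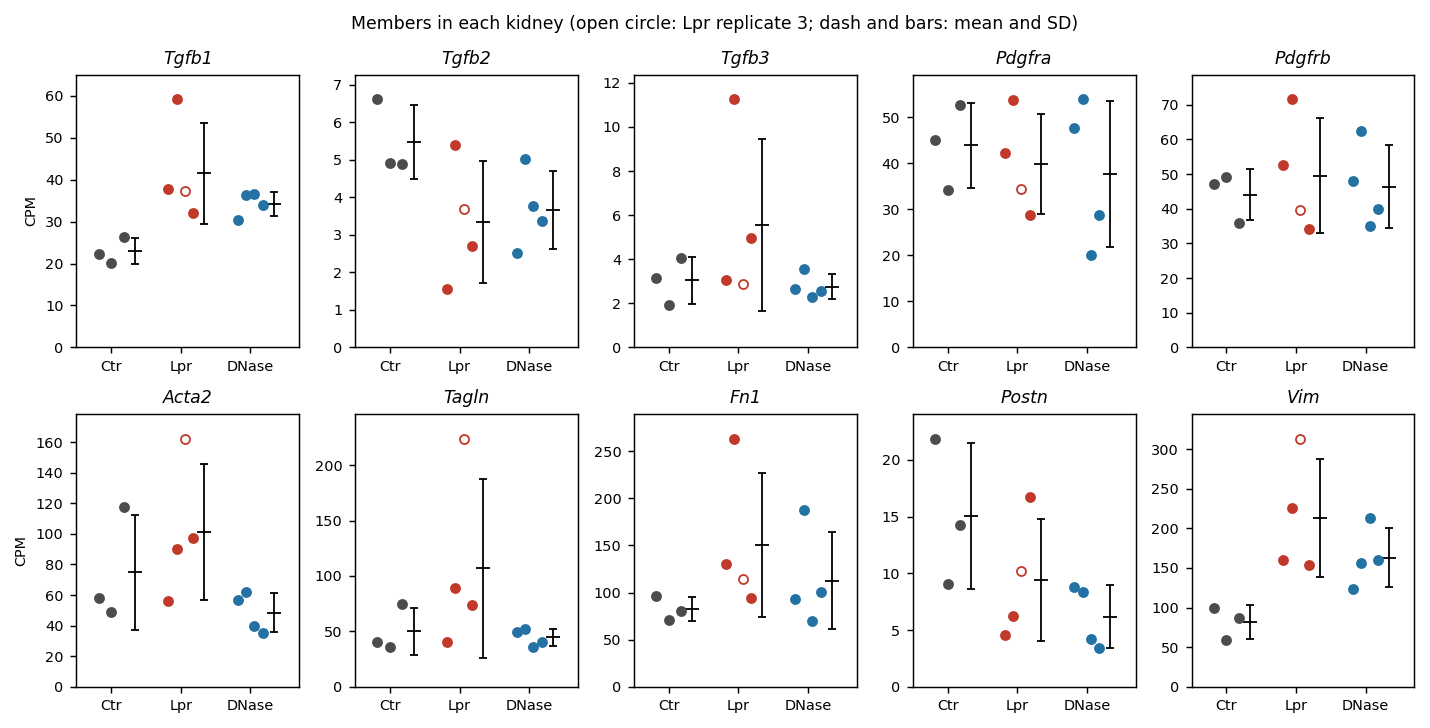
CPM of the 10 genes in each kidney, 1 panel per gene, with Ctr in grey, Lpr in red and DNase in blue; the dash and bars beside each group are its mean and SD. Tgfb1 and Vim in the Lpr and DNase kidneys lie above every Ctr kidney, while Acta2 and Tagln are highest in Lpr replicate 3 (open circle).

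Of the 10 genes 6 matched the RefSeq promoter table (GRCm38.p6, the assembly also called mm10). The 150 bases before the start are shown for Tgfb1 and Postn, which passed a test below, and for Tgfb2, a ligand fitted lower where Tgfb1 was higher. The window of Vim, which also passed, lies partly within an annotated Vim exon and is not shown. Capitals mark the letters TATAAA and those of GGGCGG and of CCAAT, searched on both strands. They stand at chr7:25686852-25687001 (plus strand, Tgfb1), chr1:186705990-186706139 (minus strand, Tgfb2) and chr3:54360957-54361106 (plus strand, Postn), each outside the exons annotated for its gene, and are written 5′ to 3′ on the strand of the gene.
Tgfb1: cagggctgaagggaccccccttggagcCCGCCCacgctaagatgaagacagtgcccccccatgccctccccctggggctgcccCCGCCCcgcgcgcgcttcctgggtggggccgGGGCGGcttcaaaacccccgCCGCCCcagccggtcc
Tgfb2: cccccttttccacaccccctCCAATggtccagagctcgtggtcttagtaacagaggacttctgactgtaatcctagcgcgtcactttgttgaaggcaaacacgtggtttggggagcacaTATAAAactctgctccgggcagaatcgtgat
Postn: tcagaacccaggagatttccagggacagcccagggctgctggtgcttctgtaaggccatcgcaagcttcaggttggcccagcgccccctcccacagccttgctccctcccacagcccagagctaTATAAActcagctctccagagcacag
The Tgfb1 stretch is 76% G and C and holds GGGCGG 1 time on the strand of the gene and 3 times on the other. The Tgfb2 stretch (51.3% G and C) has TATAAA at position -31 and CCAAT at -130, counted back from the start, and the Postn stretch (60% G and C) has TATAAA at -26. Among 32851 windows of the same 150 bases, 7.57% hold TATAAA, 28.6% hold GGGCGG and 24.5% hold CCAAT. These matches describe the letters only.

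The first question was how Lpr kidneys differ from C57BL/6J kidneys in these genes. Of 10 genes tested, 1 passed at an adjusted p under 0.05, Vim, which rose in Lpr. Over all 16074 genes tested the share that passed was 10.2% (7.27% higher and 2.92% lower), so 1 of 10 is near that background. At an unadjusted p under 0.05 there were 3 of 10, against 21.4% of all genes. No member also had an absolute log2 fold change above 2, where the share over all genes was 5.78%. Tgfb1 and Vim, 2 of the 10, did not overlap between the groups, against 25.6% of all genes (14.2% higher and 11.4% lower). In all, 7 were fitted higher and 3 lower, with a median log2 fold change of 0.66 beside 0.03 over all genes. Without Lpr replicate 3 the median was 0.36, all 10 kept their direction and 2 passed.

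The second question was whether DNase I changed these genes in MRL/lpr kidneys. None of the 10 passed by edgeR or by DESeq2, and over all 15832 genes 0% passed by edgeR and 24 genes passed by DESeq2. At an unadjusted p under 0.05 there were 3 of 10 (Acta2, Tagln and Tgfb3), against 5.6% of all genes, and the smallest adjusted p among the 10 was 0.82. No member was free of overlap between the groups, against 3.76% of all genes (2.08% higher and 1.68% lower). In all, 9 were fitted lower in DNase and Tgfb2 higher, with a median log2 fold change of -0.41 beside -0.02 over all genes, and without Lpr replicate 3 the median was -0.43 with the same directions in 10 of 10. The signs of Pdgfra and Pdgfrb turned without DNase replicate 3 or Lpr replicate 2, that of Pdgfra also without DNase replicate 4, and that of Tgfb2 turned without DNase replicate 2 or Lpr replicate 1 and under a correction for gene length.

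The third comparison set the DNase kidneys against Ctr. It shares the DNase kidneys with the second comparison and the Ctr kidneys with the first. Tgfb1 and Vim rose and Postn fell, 3 of 10 genes, where 21.7% of all 16100 genes tested passed (13.1% higher and 8.61% lower). None of the 10 had an absolute log2 fold change above 2 (6.01% of all genes). These 3 were also the genes without overlap between the groups, beside 31.9% of all genes (18.2% higher and 13.7% lower). At an unadjusted p under 0.05 there were 4 of 10, against 33.5% of all genes. The median log2 fold change of the 10 was -0.16 and that of all genes 0.00.

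**Figure D2:**
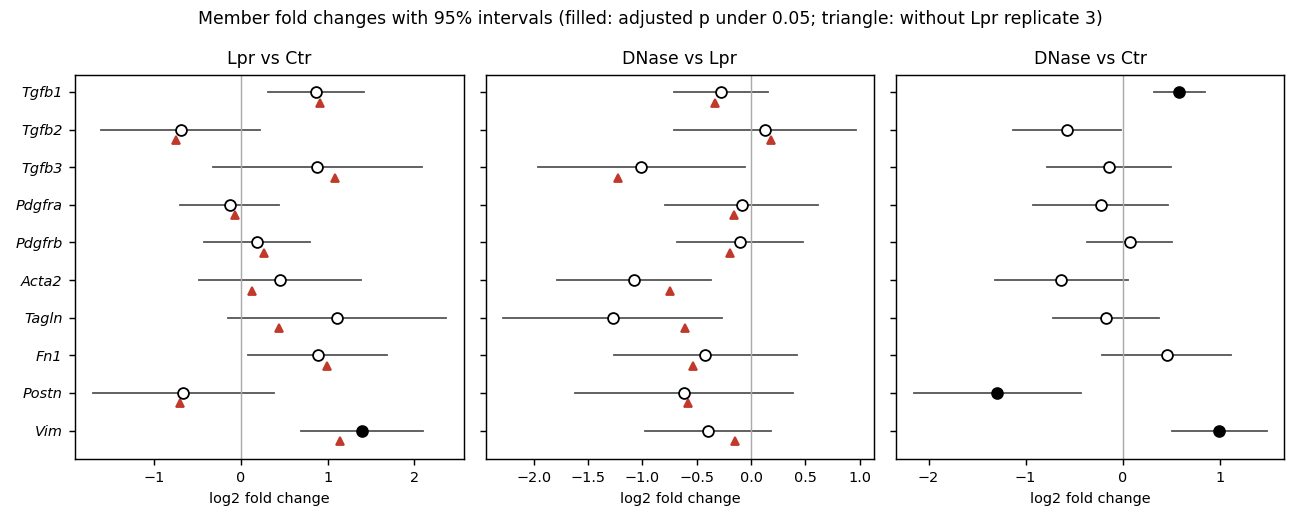
Log2 fold change of the 10 genes in the 3 comparisons, with 95% intervals from edgeR; filled circles passed at an adjusted p under 0.05 and triangles give the value without Lpr replicate 3. Vim passed in both comparisons with Ctr, Tgfb1 and Postn in DNase against Ctr, and no gene in DNase against Lpr, where Acta2 and Tagln move towards 0 without Lpr replicate 3.

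Tgfb1 encodes the ligand best known from kidney fibrosis and is also made by leukocytes. Its CPM was 22.3, 20.2 and 26.4 in Ctr, 37.8, 59.1, 37.2 and 32.0 in Lpr, and 30.4, 36.3, 36.5 and 33.9 in DNase. Every MRL/lpr kidney lay above every Ctr kidney, while the Lpr and DNase ranges overlapped. The rise in DNase was 1.49-fold over Ctr (log2 fold change 0.58, standard error 0.12, adjusted p = 0.00659), and of the alternatives tried this call was lost in the fit of all 3 groups together (adjusted p = 0.095). In Lpr the fitted difference from Ctr was larger, 0.87 (standard error 0.24), and missed the threshold with an adjusted p of 0.0586. Lpr replicate 2 was the highest kidney. The difference from Ctr passed by DESeq2 (adjusted p = 0.0122) and in the fit of all groups (0.0114). It also passed without Lpr replicate 3 (0.0335) and without Lpr replicate 4 (0.0489). In the other fits it did not pass, with an adjusted p of 0.0806 under the gene length correction. With 1 kidney left out the log2 fold change fell as low as 0.64 and the adjusted p rose as high as 0.218. Between DNase and Lpr the log2 fold change was -0.28 with a 95% interval of -0.71 to 0.15 (adjusted p = 0.854), which moved to -0.07 without Lpr replicate 2 and to -0.33 without Lpr replicate 3. Summed leukocyte markers were 48.1 to 66.8 CPM in Ctr, 306 to 527 CPM in Lpr and 250 to 455 CPM in DNase, and macrophage markers 153 to 215, 942 to 1907 and 729 to 1414 CPM, with no marker at 0 counts. Their part in the Tgfb1 and Vim levels was not tested.

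Tgfb2, a ligand with roles in development and in epithelium, had 6.61, 4.91 and 4.88 CPM in Ctr, 1.55, 5.39, 3.69 and 2.69 CPM in Lpr, and 2.51, 5.01, 3.76 and 3.37 CPM in DNase. One Lpr and 1 DNase kidney reached the range of Ctr, so the groups overlapped. The log2 fold changes were -0.70 (standard error 0.40, adjusted p = 0.38) in Lpr and -0.58 (standard error 0.25, adjusted p = 0.136) in DNase against Ctr, and neither passed. The first was -0.76 with Lpr replicate 3 left out. Tgfb3, the third ligand, had 3.13, 1.91 and 4.08 CPM in Ctr, 3.08, 11.2, 2.90 and 4.96 CPM in Lpr, and 2.65, 3.55, 2.27 and 2.57 CPM in DNase. Lpr replicate 2 was the highest, and the groups overlapped. In Lpr against Ctr the Tgfb3 log2 fold change was 0.88 (standard error 0.53, adjusted p = 0.401). It was 1.09 without Lpr replicate 3 and as low as 0.26 with 1 kidney left out. In DNase against Ctr it was -0.14 (adjusted p = 0.777). The log2 fold change of Tgfb3 in DNase against Lpr was -1.01 (unadjusted p = 0.0407, adjusted p = 0.854) and moved to -0.41 when Lpr replicate 2 was left out and to -1.23 when Lpr replicate 3 was.

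Per length, Tgfb1 made up most of the summed ligand message in every kidney, from 85.6% to 94.0%. The mean share over the 3 Ctr kidneys was 87.2 ± 1.66% (SD), over the 4 Lpr kidneys 90.8 ± 3.21% and over the 4 DNase kidneys 92.6 ± 1.16%. The share of Tgfb2 was 5.43 ± 1.20% in Ctr against 1.84 ± 0.592% in Lpr and 2.52 ± 0.526% in DNase, and the Ctr kidneys did not overlap the others. The ratio of Tgfb1 to Tgfb2 was 13.1, 15.9 and 20.9 in Ctr, 94.2, 42.5, 39.1 and 46.2 in Lpr, and 47.0, 28.1, 37.7 and 39 in DNase. On the log2 scale the ratio was 1.67 higher in Lpr and 1.19 higher in DNase than in Ctr, each with p = 0.0571 by a two-sided exact permutation test over kidneys, the smallest p that 3 against 4 kidneys can give. Adjusted over the 3 ratios examined, the values were 0.171 and 0.0857. Between DNase and Lpr the log2 ratio differed by -0.47 (exact permutation p = 0.2). Without Lpr replicate 3 the differences were 1.80 between Lpr and Ctr and -0.61 between DNase and Lpr.

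**Figure D3:**
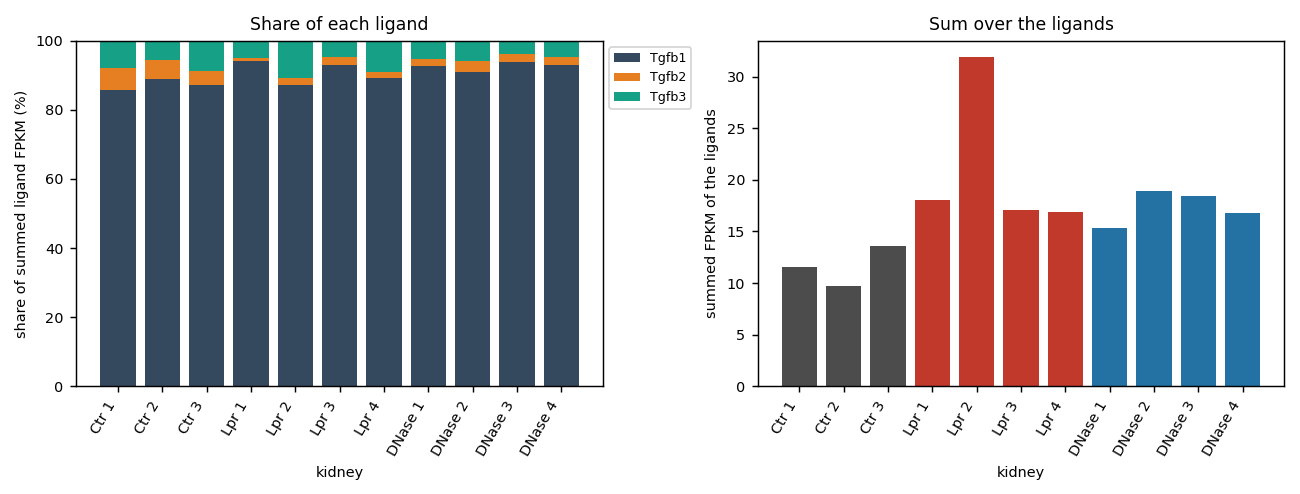
Left, share of Tgfb1, Tgfb2 and Tgfb3 in the summed FPKM of the ligands in each kidney, in percent; right, the sum itself in FPKM. Tgfb1 holds 85.6% or more in every kidney, and the sum is highest in Lpr replicate 2 at 31.9 FPKM.

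Pdgfra and Pdgfrb encode the receptors through which PDGF reaches fibroblasts, pericytes and mesangial cells. Neither passed in any comparison. Pdgfra had 45.1, 34.3 and 52.6 CPM in Ctr, 42.4, 53.9, 34.5 and 28.7 CPM in Lpr, and 47.7, 53.9, 20.0 and 28.9 CPM in DNase. Pdgfrb had 47.2, 49.3 and 35.8 CPM in Ctr, 52.7, 71.6, 39.8 and 34 CPM in Lpr, and 48.1, 62.4, 34.95 and 39.8 CPM in DNase. The groups overlapped throughout for both receptors. The largest log2 fold change of either was -0.23, for Pdgfra between DNase and Ctr, with a 95% interval of -0.92 to 0.47. For Pdgfrb the interval was -0.43 to 0.80 in Lpr against Ctr and -0.68 to 0.48 in DNase against Lpr. The log2 ratio of Pdgfrb to Pdgfra did not differ beyond the spread between kidneys (exact permutation p between 0.4 and 0.686 in the 3 comparisons). The sign of the Pdgfra difference between Lpr and Ctr, -0.13, turned under the gene length correction to 0.04. With Lpr replicate 3 left out, the differences between Lpr and Ctr were -0.07 for Pdgfra and 0.27 for Pdgfrb, and those between DNase and Lpr -0.15 and -0.19.

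Acta2 encodes smooth muscle alpha-actin, the protein by which myofibroblasts are usually recognised. Its CPM was 58.0, 48.8 and 118 in Ctr, 56.1, 89.9, 162 and 97.2 in Lpr, and 56.8, 61.9, 39.4 and 35.5 in DNase. Lpr replicates 2, 3 and 4 lay above all DNase kidneys, and Lpr replicate 1 lay among them. The log2 fold change in DNase against Lpr was -1.08 (standard error 0.32, unadjusted p = 0.00729, adjusted p = 0.82) and was -0.75 without Lpr replicate 3. DESeq2 gave an adjusted p of 0.161 for the same difference. Against Ctr the differences were 0.45 in Lpr (adjusted p = 0.595, and 0.12 without Lpr replicate 3) and -0.63 in DNase (adjusted p = 0.185), with Ctr replicate 3 high at 118 CPM.

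Tagln encodes transgelin, an actin-binding protein of smooth muscle. It had 40.2, 35.7 and 74.4 CPM in Ctr, 40.3, 89.3, 224 and 73.7 CPM in Lpr, and 49.6, 52.3, 36.1 and 40.1 CPM in DNase. Lpr replicate 3 held the highest value by far, and the other kidneys ranged from 35.7 to 89.3 CPM. The log2 fold change in DNase against Lpr was -1.28 (standard error 0.45, unadjusted p = 0.0182, adjusted p = 0.82), and was -0.61 without Lpr replicate 3. That of Lpr against Ctr was 1.11 (adjusted p = 0.303), and was 0.44 without Lpr replicate 3 and 0.82 with the gene length correction. On the opposite strand, exons of Pcsk7 overlap those of Tagln, and Pcsk7 reached 50.1 CPM. The counting was not stated to use strand, so reads of the overlap could count for either gene or neither. The ratio of Tagln to Acta2 per length was 1.24, 1.31 and 1.13 in Ctr, 1.28, 1.77, 2.47 and 1.36 in Lpr, and 1.56, 1.51, 1.63 and 2.02 in DNase. Every DNase kidney exceeded every Ctr kidney, a log2 difference of 0.45 (exact permutation p = 0.0571, adjusted over 3 ratios 0.0857), which is again the smallest p possible.

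Genes of urothelium (the lining of the renal pelvis), fat and smooth muscle also varied between kidneys of 1 group. The marker genes named in this paragraph were picked outside the naming rule given below. Upk3a, a protein of the urothelial surface, had 15.7, 2.20 and 30.7 CPM in Ctr, 0.735, 1.77, 25.2 and 19.6 CPM in Lpr, and 5.52, 7.59, 1.44 and 4.79 CPM in DNase. Ctr replicates 1 and 3 and Lpr replicates 3 and 4 were the high ones. Adipoq, the fat cell hormone adiponectin, had 42.1, 3.44 and 73.5 CPM in Ctr, 0.904, 1.87, 72.2 and 59.8 CPM in Lpr, and 0.279 to 17.9 CPM in DNase. The smooth muscle gene Actg2 had 2.59, 0.0956 and 5.39 CPM in Ctr, 0.367, 0.677, 3.40 and 6.12 CPM in Lpr, and 0.126 to 1.08 CPM in DNase. Myh11, the smooth muscle myosin heavy chain of the same marker list, had 33.5, 20.1 and 52.6 CPM in Ctr, 17.4, 25.4, 8.36 and 48.3 CPM in Lpr, and 10.8 to 27.8 CPM in DNase. The same 4 kidneys held the highest values of Upk3a, Adipoq, Actg2 and Postn. Acta2 and Tagln did not share that order. Acta2 in Ctr replicate 1 (58.0 CPM) lay below Lpr replicate 2 (89.9 CPM) and DNase replicate 2 (61.9 CPM). Tagln there (40.2 CPM) lay below Lpr replicates 1 and 2 (40.3 and 89.3 CPM) and DNase replicates 1 and 2 (49.6 and 52.3 CPM). Myh11 went the other way in Lpr replicate 3, the kidney with the highest Acta2 and Tagln, where it was the lowest of all kidneys. Cnn1, of the same list, had 4.26, 1.05 and 12.6 CPM in Ctr and 2.35, 4.37, 8.24 and 10.9 CPM in Lpr. In DNase it had 1.29 to 3.41 CPM. Lpr replicate 3 is also the library whose levels changed most with gene length. The part of that change in these values was not tested. Summed over its list, urothelium ranged from 10.7 to 111 CPM in Ctr, from 6.47 to 101 CPM in Lpr and from 6.73 to 26.9 CPM in DNase, fat from 62.2 to 988, from 34.1 to 1321 and from 39.5 to 255 CPM, and smooth muscle from 154 to 194, from 104 to 180 and from 118 to 190 CPM. The smooth muscle sum was also lowest in Lpr replicate 3, at 104 CPM. It includes Myh11 and is therefore not separate from that value. Its largest part came from Smtn, with group means of 120 CPM in Ctr, 104 CPM in Lpr and 118 CPM in DNase. Lmod1, the remaining marker of the list, had means of 3.88 CPM in Ctr, 3.92 CPM in Lpr and 3.78 CPM in DNase. None of the 5 urothelium, 4 fat and 5 smooth muscle markers was at 0 counts in any kidney, and none of these 14 passed in any comparison. The part of such tissue in the Acta2, Tagln and Postn values was not tested.

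**Figure D4:**
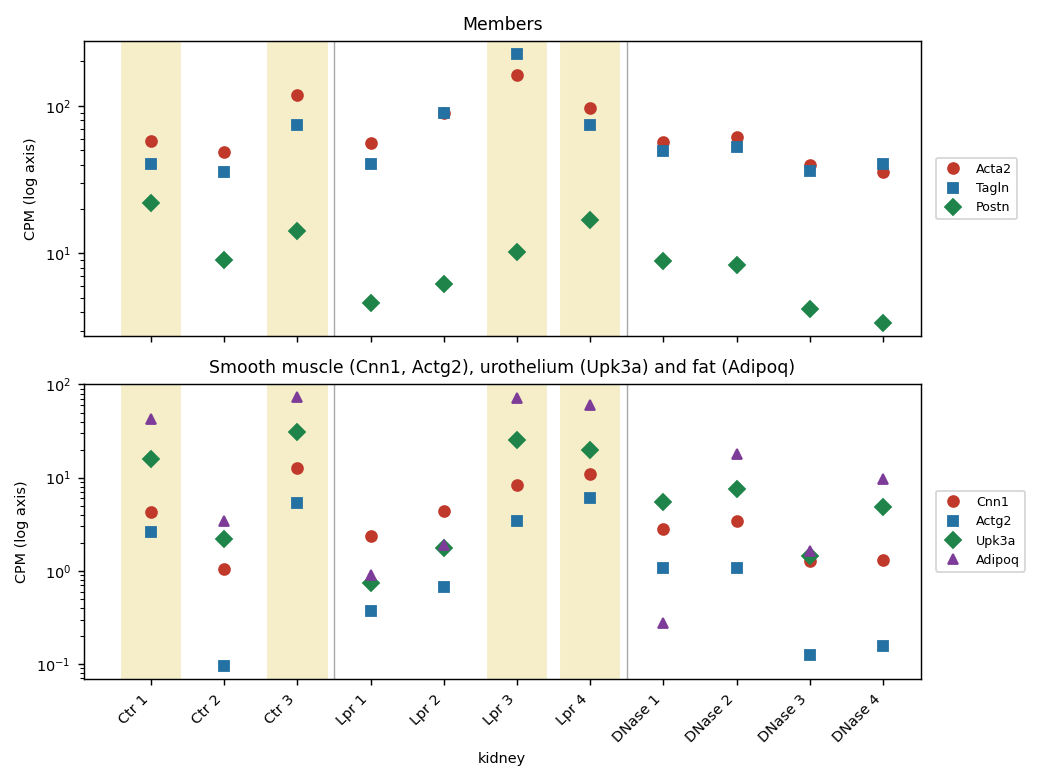
CPM on a log axis in each kidney for Acta2, Tagln and Postn (top) and for the smooth muscle genes Cnn1 and Actg2, the urothelial gene Upk3a and the fat gene Adipoq (bottom). The shaded kidneys, Ctr 1, Ctr 3, Lpr 3 and Lpr 4, have Upk3a at 15.7 CPM or more, and no other kidney exceeds 7.59 CPM. The smooth muscle markers Myh11, Smtn and Lmod1 are not drawn. Myh11, at 8.36 CPM, and the sum of the smooth muscle list, at 104 CPM, were lowest in Lpr 3.

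Fn1 encodes fibronectin, a matrix glycoprotein on which collagen is laid down and which is also a plasma protein. Its CPM was 96.1, 70.4 and 80.8 in Ctr, 130, 263, 114 and 94.3 in Lpr, and 92.8, 188, 70.1 and 100.3 in DNase. Lpr replicates 1, 2 and 3 lay above Ctr, Lpr replicate 4 lay within its range, and the highest values of both MRL/lpr groups came from a single kidney each. The log2 fold change in Lpr against Ctr was 0.88 (standard error 0.35, unadjusted p = 0.0344, adjusted p = 0.184) and was 0.99 without Lpr replicate 3 (adjusted p = 0.098). It was -0.42 in DNase against Lpr (adjusted p = 0.854) and -0.02 there without Lpr replicate 2, or -0.54 without Lpr replicate 3.

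Postn encodes periostin, a matricellular protein that injured kidney and other connective tissue secrete. It had 21.9, 9.09 and 14.3 CPM in Ctr, 4.58, 6.25, 10.2 and 16.7 CPM in Lpr, and 8.81, 8.32, 4.19 and 3.37 CPM in DNase. All DNase kidneys lay below all Ctr kidneys, the nearest being 8.81 against 9.09 CPM. Postn fell 2.45-fold in DNase against Ctr (log2 fold change -1.29, standard error 0.38, adjusted p = 0.0392). The call did not survive leaving out Ctr replicate 1 (adjusted p = 0.169), Ctr replicate 3 (0.0747), DNase replicate 3 (0.0917) or DNase replicate 4 (0.0827), and it was also lost with limma at each of 3 settings (0.0657 to 0.141), with all 3 groups in one fit (0.115) and with the replicate number as a block (0.101). In Lpr against Ctr the log2 fold change was -0.67 (adjusted p = 0.472), with Lpr replicates 3 and 4 inside the Ctr range, and -0.71 without Lpr replicate 3. Between DNase and Lpr it was -0.62, and -0.58 without Lpr replicate 3.

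Vim encodes vimentin, the intermediate filament of mesenchymal cells and leukocytes. Its CPM was 99.8, 58.5 and 87.3 in Ctr, 161, 225, 313 and 154 in Lpr, and 123, 156, 213 and 160 in DNase. All 8 MRL/lpr kidneys exceeded all 3 Ctr kidneys. Vim rose 2.63-fold in Lpr (log2 fold change 1.39, standard error 0.31, adjusted p = 0.0231) and 1.99-fold in DNase (1.00, standard error 0.22, adjusted p = 0.0099). Without Lpr replicate 3, the highest kidney, the rise in Lpr was 1.14 on the log2 scale (adjusted p = 0.0122). The call in Lpr was lost without Ctr replicate 1 (adjusted p = 0.0596), Ctr replicate 2 (0.1), Ctr replicate 3 (0.0831) or Lpr replicate 2 (0.0604), while the call in DNase held in all fits made, at an adjusted p of 0.0426 or less. Between DNase and Lpr the log2 fold change was -0.39 with a 95% interval of -0.97 to 0.19, and it was -0.15 without Lpr replicate 3.

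The rest of the pathway was read from 8 lists with 96 genes in all, each of which was tested in every comparison. Between Lpr and Ctr 4 of the 96 passed as higher and 1 as lower, with a median log2 fold change of 0.29 (1 gene stands in 2 of the lists). Of all genes, 7.27% passed as higher and 2.92% as lower in that comparison, so the lists held no larger share than genes at large. Between DNase and Ctr 10 passed as higher and 6 as lower, with a median of 0.01, where 13.1% and 8.61% of all genes did. Between DNase and Lpr none passed by edgeR, and the median was -0.24. The fit of all 3 groups lost the calls of Furin, Zfyve9, Pdgfc, Mrtfa, Myl9 and Tcf21 between DNase and Ctr (adjusted p 0.0786 to 0.547). Those of Nrros, Ltbp2, Ltbp4, Tgfbi and Thy1 held in that fit. With the replicate number as a block the calls of Tgfbi and of the same genes lost above were lost there (adjusted p 0.0618 to 0.113). Limma without a filter on FPKM lost those of Myl9 (0.0939) and Tcf21 (0.0888), and the gene length correction that of Tcf21 (0.0529).

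Genes of the list for TGF-beta storage and activation moved in both directions. Nrros, which tethers latent TGF-beta on the surface of macrophages, had 4.13 ± 0.434 CPM (SD over kidneys) in Ctr and rose to 16.97 ± 3.25 CPM in Lpr and to 13.2 ± 2.41 CPM in DNase. The fold was 4.14 in Lpr (adjusted p = 0.000992) and 3.19 in DNase (adjusted p = 0.000201). Ltbp2, a microfibril protein of the latent TGF-beta binding protein family, rose 5.39-fold in Lpr (adjusted p = 0.0253) and 6.97-fold in DNase (adjusted p = 0.00157). Its call in Lpr was lost without any 1 of the Ctr kidneys and with the replicate number as a block (adjusted p = 0.0782). It was also lost with limma on log2(FPKM + 1), at 0.103, or 0.155 without the FPKM filter. Its relative Ltbp4, which binds latent TGF-beta1, fell from 84.9 ± 11.9 CPM in Ctr to 46.2 ± 3.41 CPM in Lpr (adjusted p = 0.0089) and 43.5 ± 10.5 CPM in DNase (adjusted p = 0.00366). The Ltbp4 call in Lpr was lost without Ctr replicate 1 (0.0631) and with the replicate block (0.0871). In DNase against Ctr, Furin, the protease that cuts the TGF-beta precursor, also fell, to 0.749-fold (adjusted p = 0.00394), and so did Itgb5, an integrin chain, to 0.838-fold (adjusted p = 0.0445). Itgb5 was named after its value was seen. Of the 14 genes, 2 rose and 1 fell in Lpr, or 3 and 2 without Lpr replicate 3, and 2 rose and 3 fell in DNase. Of all genes, 7.27% rose and 2.92% fell in Lpr, and 13.1% rose and 8.61% fell in DNase. With the replicate number as a block 1 of the 14 passed in Lpr and 3 in DNase. Nrros, Ltbp2 and Ltbp4 also passed in Lpr without Lpr replicate 3, with log2 fold changes of 2.10, 2.52 and -0.83. The median log2 fold change was 0.03 in Lpr against Ctr, the same as over all genes, and 0.13 without Lpr replicate 3.

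None of the 5 TGF-beta receptor genes passed in the 3 comparisons (1 passed as higher in Lpr against Ctr without Lpr replicate 3), and their median log2 fold changes were 0.09 in Lpr against Ctr, -0.06 in DNase against Lpr and 0.17 in DNase against Ctr, the former 2 being 0.22 and -0.15 without Lpr replicate 3. Of 13 genes for SMAD signalling and its inhibitors none passed between Lpr and Ctr. In DNase against Ctr 1 passed, Zfyve9, an anchor that brings SMAD proteins to the receptor, which fell to 0.769-fold (55.6 ± 1.48 against 42.8 ± 2.01 CPM, adjusted p = 0.00363). In Lpr against Ctr Zfyve9 passed without Lpr replicate 3 (0.013). The list medians, -0.03, 0.02 and 0.03, were close to those of all genes, and the first was 0.13 and the second -0.05 without Lpr replicate 3.

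Among 18 TGF-beta target genes 1 passed between Lpr and Ctr and 4 between DNase and Ctr, all as higher, where 7.27% and 13.1% of all genes passed as higher. The count for Lpr against Ctr depended on the fit, with 5 by DESeq2, 4 with all groups in one fit, 4 with the replicate block, 3 with no count filter, 2 without Lpr replicate 3 and 0 without Ctr replicate 2 or Ctr replicate 3. That for DNase against Ctr was 1 with all groups in one fit and 1 with the replicate block. Tgfbi, a secreted matrix protein named for its induction by TGF-beta, rose from 21.3 ± 8.25 CPM in Ctr to 62.4 ± 17.2 CPM in Lpr (2.96-fold, adjusted p = 0.017) and 47.9 ± 8.30 CPM in DNase (2.25-fold, adjusted p = 0.00755). Its call in Lpr was lost without Ctr replicate 2 (0.0805) or Ctr replicate 3 (0.0811), and held without Lpr replicate 3 (0.0193). Zeb2, a transcriptional repressor, and Loxl2, an enzyme that cross-links collagen, rose 1.46-fold and 1.49-fold in DNase over Ctr (adjusted p = 0.0393 and 0.0334) and are named after their values were seen. Both calls were lost with all groups in one fit, where Tgfbi was the 1 target gene that passed. The list median was 0.42 in Lpr against Ctr and -0.36 in DNase against Lpr, where 16 of 18 genes were fitted lower and none passed, and these medians were 0.48 and -0.27 without Lpr replicate 3.

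Of the 4 PDGF ligands, Pdgfc, a ligand of the receptor encoded by Pdgfra, rose 1.45-fold in DNase over Ctr (adjusted p = 0.0216), a call lost without Ctr replicate 2 (0.0508), Ctr replicate 3 (0.0709), DNase replicate 2 (0.056) or DNase replicate 4 (0.0618). None passed between Lpr and Ctr, and the list medians were 0.17, -0.14 and -0.03 in Lpr against Ctr, DNase against Lpr and DNase against Ctr, the first and second turning to -0.05 and 0.02 without Lpr replicate 3. The 15 further contractile genes of smooth muscle held none that passed between Lpr and Ctr. In DNase against Ctr Mrtfa, a coactivator of serum response factor, rose 1.30-fold (adjusted p = 0.0322), a call lost without any 1 of 5 kidneys (0.0606 to 0.109). In the same comparison Myl9, a regulatory light chain of myosin, fell to 0.668-fold (adjusted p = 0.0129). Without Lpr replicate 3 the sign of Myl9 in Lpr against Ctr turned from 0.01 to -0.36, and Mrtfa passed there (adjusted p = 0.0418). The list medians were 0.13, -0.23 and -0.08 in the same order, with 0.15 and -0.29 for the first and second without Lpr replicate 3.

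Among 17 fibroblast genes Thy1, a surface protein of fibroblasts and, in mice, of T cells, rose from 4.78 ± 1.67 CPM in Ctr to 22.8 ± 7.73 CPM in Lpr (4.81-fold, adjusted p = 0.00467) and 18.5 ± 2.76 CPM in DNase (3.85-fold, adjusted p = 0.000508), and its call in Lpr held without Lpr replicate 3 (0.00541). S100a4, a calcium-binding protein of fibroblasts and leukocytes, rose 1.99-fold in DNase over Ctr (adjusted p = 0.0387), with overlap between the groups, and is named after its value was seen. Tcf21, a transcription factor of stromal cells and podocytes, fell to 0.728-fold in DNase against Ctr (adjusted p = 0.0182), a call also lost without Ctr replicate 1 (0.0528). In Lpr its 53.8 CPM in replicate 3 stood beside 17.1 to 23.4 CPM in the other kidneys, and without replicate 3 it passed as lower than Ctr (adjusted p = 0.0171). Every 1 of the 17 genes had a negative fitted difference between DNase and Lpr (median -0.57, or -0.50 without Lpr replicate 3), and none passed. In Lpr against Ctr 15 of the 17 were fitted higher (median 0.46, or 0.44 without Lpr replicate 3), and in DNase against Ctr the median was -0.13. The 11 fibronectin partners and matricellular genes held none that passed with all kidneys and 1 without Lpr replicate 3. All were fitted higher in Lpr than in Ctr with a median of 0.37, which was 0.41 without Lpr replicate 3. In DNase against Lpr 10 of the 11 were fitted lower (median -0.29, or -0.32 without Lpr replicate 3), and in DNase against Ctr the median was 0.12. Many of these genes are also made in fat, vessel wall or leukocytes, and the part of those cells was not tested.

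**Figure D5:**
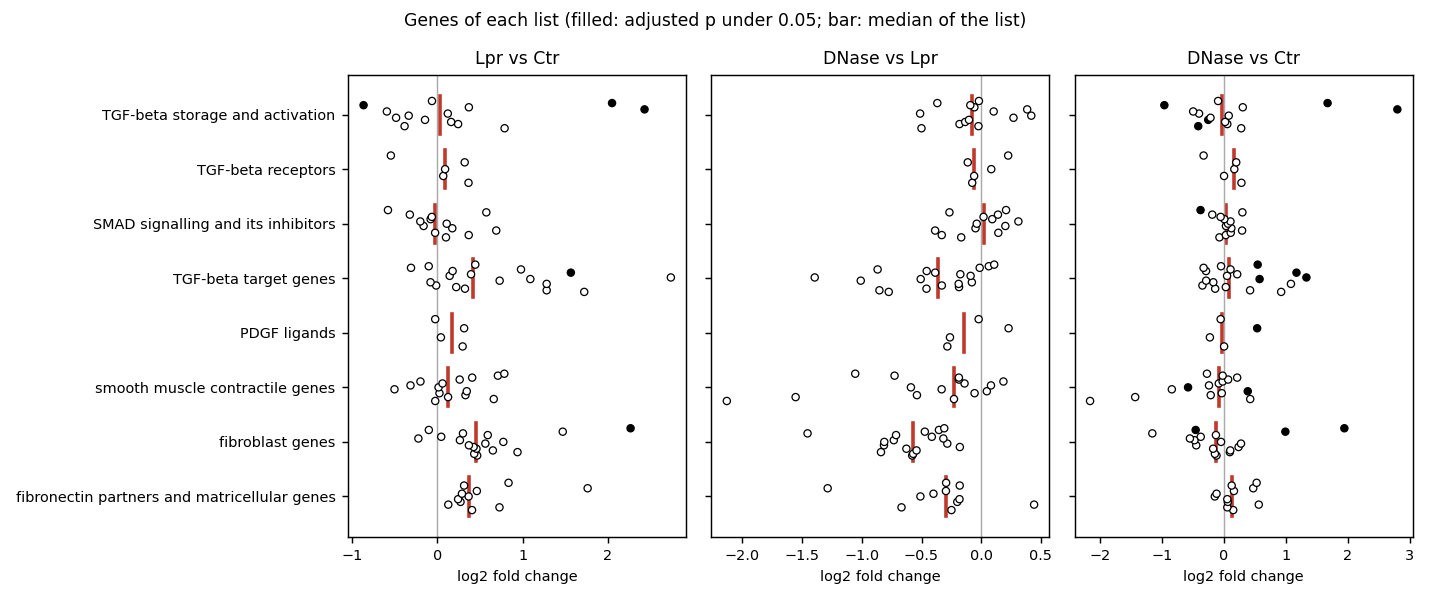
Log2 fold change of every gene of the 8 lists in the 3 comparisons; filled points passed at an adjusted p under 0.05 and the red bar is the list median. In DNase against Lpr no point is filled and the medians of the fibroblast genes (-0.57) and the TGF-beta targets (-0.36) lie lowest.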

How the data were processed

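The authors deposited raw counts of paired-end fragments for each gene symbol, made from total kidney RNA with 1 library per kidney. Per the labels, fastp, HTSeq, DESeq2 and R 3.2.0 were used with the build mm10, the study names HTSeq for aligning reads to genes, and no separate genome aligner and no strand setting are given in the sources used here. A second deposited table holds FPKM, which equals these counts over the library total and a length that is the same for a gene in every library. No deposited column was left unused.

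Here the counts were compared in pairs of groups with edgeR 4.0.16 (R 4.3.3): filterByExpr, TMM, glmQLFit and glmQLFTest on the kidneys of the 2 groups alone, with Benjamini-Hochberg adjustment over all genes tested. CPM used TMM library sizes. The threshold for passing was an adjusted p of 0.05, and a stricter rule added a log2 fold change beyond 2 in size. Ratios between genes were compared by two-sided exact permutation tests. Alternatives used DESeq2 1.42.0, its size factors, no count filter, all groups in one fit, the replicate number as a block, limma 3.58.1 on log2(FPKM + 1) or log2(FPKM + 0.1) for genes of at least 0.5 mean FPKM or without that filter, a gene length offset, and each kidney left out in turn. The procedure was also run on simulated counts drawn independently gene by gene, and the outcome is not given here. The 10 genes, the 8 gene lists and the 12 marker lists were chosen with earlier results of these data known. From each list the text names up to 2 genes per comparison and direction with the smallest p among those that passed without overlap, and from the markers at most 1. The markers Upk3a, Adipoq, Actg2, Myh11, Cnn1, Smtn and Lmod1 were picked outside this rule and did not pass. The values of 1 gene that met this rule are not reported here. Replicates of a group differed by a chi-square per degree of freedom of 16.5 to 366. P-values set a difference between groups against the spread between these kidneys. Gene positions come from GENCODE M21, where 5 of the 10 genes share exonic bases with another gene.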

Additional observations from a re-analysis of the deposited data

Results flagged for a closer look

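In each group of 4 kidneys the 10 genes and 14 further genes chosen by the naming rule were examined for a kidney standing apart from the other 3, in 48 groups, of which chance alone flags about 1 in 20. None of the 10 genes had such a kidney. In 3 of the further genes 1 kidney did. Zfyve9, the SMAD anchor, had 23.3 CPM in Lpr replicate 3, below the other Lpr kidneys. Pdgfc, a PDGF ligand, had 20.1 CPM in the same kidney, also below the others. Cd8a, the T cell coreceptor, had 39.1 CPM in DNase replicate 3, above the other DNase kidneys.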

How the results depend on the processing

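Between Lpr and Ctr 1639 genes passed, with 1 of the 10 genes among them. These counts became 929 and 0 with the log2 fold change above 2, 2460 and 2 with DESeq2, 2555 and 2 with all groups in one fit, and 852 (without Ctr replicate 1) to 2824 (without Lpr replicate 3) and 0 to 2 when 1 kidney was left out. Between DNase and Lpr 0 genes passed in each fit made except DESeq2, with 24 genes and 0 of the 10. Between DNase and Ctr 3493 genes and 3 of the 10 passed, 967 and 0 with the log2 fold change above 2, and 1889 and 1 with all groups in one fit. The replicate number as a block gave 1862 genes and 2 of the 10 there, 1246 and 1 between Lpr and Ctr, and 0 between DNase and Lpr. The labels do not say that the numbers pair the kidneys, deviations of same-numbered kidneys correlated by -0.277 to 0.158, and the block against Ctr leaves out the MRL/lpr kidneys numbered 4. The cause of these moves was not tested.

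Some log2 fold changes turned sign, none of them past the test in the edgeR comparison of the same groups. With the replicate block, Pdgfra in Lpr against Ctr was 0.000875 and Furin in DNase against Lpr 0.0836. With limma, Myl9 in Lpr against Ctr was -0.0454 (-0.0472 with the smaller pseudocount), and Furin in DNase against Lpr was 0.137 (0.144). With the length offset, Pdgfra (0.0368) and Myl9 (-0.243) in Lpr against Ctr and Tgfb2 (-0.0470) in DNase against Lpr turned. With 1 kidney left out, values in Lpr against Ctr ranged from -0.358 to 0.194 for Myl9, from -0.322 to 0.0175 for Pdgfra, from -0.0651 to 0.329 for Pdgfrb and from -0.637 to 0.0810 for Tcf21. Those in DNase against Lpr ranged from -0.108 to 0.451 for Tgfb2, from -0.310 to 0.123 for Pdgfra, from -0.276 to 0.122 for Pdgfrb, from -0.126 to 0.152 for Mrtfa, from -0.280 to 0.128 for Furin, from -0.533 to 0.179 for Tcf21 and from -0.0475 to 0.30 for Wt1. Those in DNase against Ctr ranged from -0.385 to 0.121 for Tgfb3, from -0.110 to 0.186 for Pdgfrb and from -0.366 to 0.223 for Tagln. The log2 ratio of Pdgfrb to Pdgfra ranged from -0.00116 to 0.539 in Lpr against Ctr and from -0.0650 to 0.198 in DNase against Lpr, and that of Tagln to Acta2 from -0.116 to 0.198 in DNase against Lpr.

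Of 486 alternative values of the 10 genes, 451 kept direction and side of the threshold, 14 lost a call, 4 gained one and 17 turned sign. Of 686 for the other named genes, 616 kept both. Counts of list genes past the test moved by over 1.5 times in 64 of the alternative values computed for them.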
